A study of Homo sapiens with 54 samples.

Results

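H1 human embryonic stem cells kept for 30 days in E8 Medium were set against H1 pre-cultures in the same medium, to describe what differs after prolonged culture. The 5 cultures were taken by their labels from the 27 cultures of the series, as 2 cultures after 30 days and 3 pre-cultures, each on 2 arrays, which is 10 of 54 arrays. The 30-day cultures, at passage 58 and both numbered experiment 1, were grown with 100 ng/mL of bFGF or with 100 ng/mL of FGFC, a chimeric FGF protein, and are pooled as prolonged culture. The pre-cultures, at passages 48, 49 and 50 in experiments 1, 2 and 3, had been kept with 100 ng/mL of bFGF and had no counted days. All 5 were in E8 Medium, labelled as Essential 6 Medium with TGF-beta 1 added at 2 ng/mL. As a second reference served 6 H1 cultures in E8 Medium after 4 days, 3 with 100 ng/mL of bFGF and 3 with 100 ng/mL of FGFC, at passages 49, 59 and 51 in experiments 1, 2 and 3 by their titles, while another field gives passages 52 to 54 for 3 of the 4 arrays of experiment 3. The late-minus-pre contrast was also taken in 4 other systems of 3 cultures each (a pre-culture, a late bFGF culture and a late FGFC culture). These were H1 in medium conditioned by mouse embryonic fibroblasts (MEF) with 5 ng/mL of FGF, at passage 53 and, after 41 days, at passage 63; the embryonic stem cell line KhES-1 on MEF with 5 ng/mL, at passages 30 and, after 30 days, 40; the iPSC line 201B7 on MEF with 10 ng/mL, at passages 30 and, after 50 days, 40; and the iPSC line 253G1 in E8 Medium with 100 ng/mL, at passages 43 and, after 36 days, 52. H1, KhES-1, 201B7 and 253G1 are each 1 established line, so that the pre-cultures and the 30-day cultures do not differ in genotype by label. They differ in days, passage and time of processing and, for the FGFC culture, in the FGF added.

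Human pluripotent stem cells in defined medium depend on FGF signalling through ERK and on Nodal or TGF-beta signalling through SMAD2 and SMAD3, which hold up the core factors POU5F1 (OCT4), SOX2 and NANOG. Long culture is known to favour variants that grow or survive better, among them gains of the long arm of chromosome 20 that include BCL2L1, and to alter some imprinted genes. E8 Medium holds no albumin and little lipid, so the cells make most of their own cholesterol and fatty acids.

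Each value below is a normalised signal, which is the log2 signal minus the 75th percentile of the array, averaged over the 2 arrays of a culture, so that 0 stands for a probe at that percentile and a difference of 1 for 2-fold. Of 42405 probes, 25863 were well above background on all 6 arrays of the pre-cultures or all 4 arrays of the 30-day cultures, and they stand for 14217 genes. RNA came from whole cultures, so fewer cells of a type and less RNA per cell cannot be told apart.

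The pre-culture of experiment 3 stood apart from the other pre-cultures and lay close to the 30-day cultures. The pre-cultures of experiments 1 and 2 differed 2-fold or more at 150 of the 25863 probes (0.58%). That of experiment 3 differed from experiment 1 at 1355 probes (5.24%) and from experiment 2 at 748 probes (2.89%). From the 30-day bFGF culture it differed at only 196 probes (0.758%), and from the 30-day FGFC culture at 573 (2.22%). The 30-day bFGF culture differed from experiment 1 at 1624 probes (6.28%) and the 30-day FGFC culture at 3811 (14.7%), and both 30-day cultures differed from each other at 545 (2.11%). The duplicate arrays of a culture were 2-fold or more apart at 37 to 430 probes, most in the 30-day bFGF culture and next in the pre-culture of experiment 3, with 358. Among these 5 cultures the nearest to the 30-day bFGF culture by this count was therefore a pre-culture, and the counts, the named differences and the list medians are also given against the pre-cultures of experiments 1 and 2 alone.

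**Figure D1:**
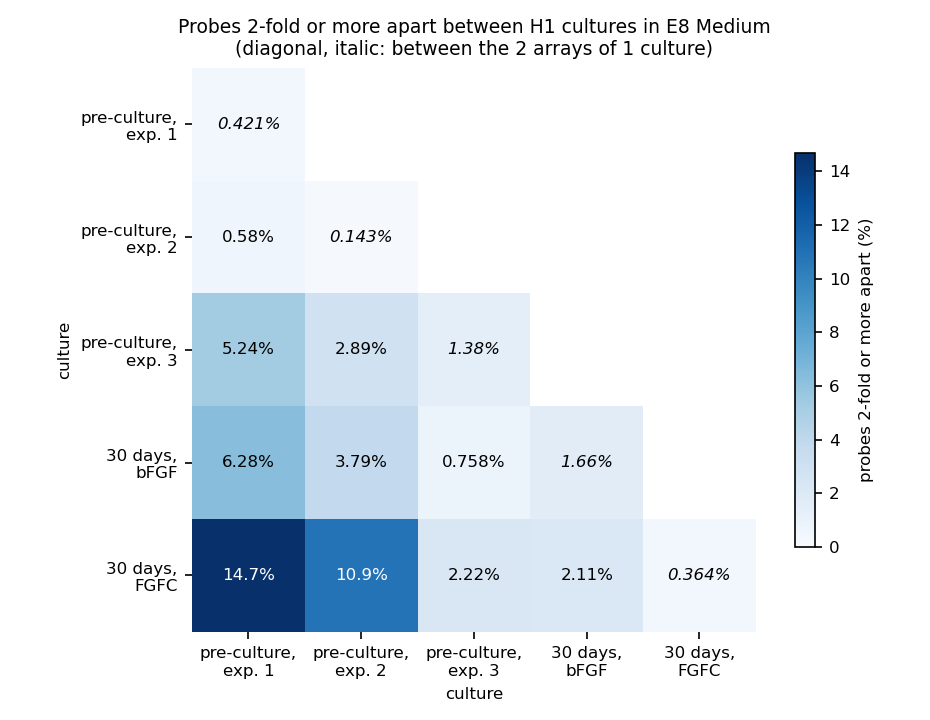
Percentage of the 25863 probes that lay 2-fold or more apart between each pair of the 5 cultures (rows and columns), with the 2 arrays of a culture compared on the diagonal. The pre-culture of experiment 3 and the 30-day bFGF culture differed at 0.758% of the probes, against 5.24% between the pre-cultures of experiments 3 and 1.

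Slides and scan days followed the groups in part. All 4 arrays of the 30-day cultures were scanned on 1 day together with 1 array of the pre-culture of experiment 1, which also shared a slide with the 2 arrays of the 30-day bFGF culture. The other 5 pre-culture arrays were on other slides and scan days. The share of probes well above background was 67.6% and 74.0% on the arrays of the pre-culture of experiment 1, 74.5% and 73.9% for experiment 2, and 62.4% and 66.4% for experiment 3. It was 60.1% and 63.4% in the 30-day bFGF culture and 67.6% and 65.8% in the 30-day FGFC culture. In this share, too, experiment 3 lay with the 30-day cultures. So did the array of experiment 1 scanned with them (67.6%), while its duplicate from another scan day had 74.0%. The part of this share in the results was not tested.

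At 2-fold or more, the differences shared by both 30-day cultures were few and mostly downward. Transcripts of SPINK5, COL4A4, OVGP1, the Nodal inhibitor LEFTY2, WNT3 and IGF2, and many long intergenic non-coding RNAs (lincRNAs) were lower, and a small set with TM4SF1, CHRDL2, MSI2, PPP1R17 and RRM2 was higher. A probe was counted when both 30-day cultures lay 2-fold or more from the mean of the 3 pre-cultures, in the same direction and outside their range. Of the 25863 probes, 11 were higher (0.0425%) and 167 were lower (0.646%). At 3 of the 11 and 29 of the 167 the duplicate arrays of at least 1 culture were 2-fold or more apart, a share not given over all probes. Of the 11 and the 167, 6 and 106 were well above background on all arrays of both groups, as were 24345 of all probes. With 1 probe for each of 14217 genes, 7 genes were higher (0.0492%) and 56 were lower (0.394%). After normexp 0 probes were higher and 26 lower, with 0 of the 11 and 24 of the 167 among them, and after quantile normalization 27 were higher and 124 lower. The differences at the shared probes ran from 2.05-fold to 4.85-fold upward and from 2.03-fold to 12.9-fold downward. The probe at 12.9-fold was well above background on only 3 of 4 arrays after 30 days, so the upper end downward is imprecise.

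None of these differences passed the main fit over all probes. With limma over 11 H1 cultures, 0 of 42405 probes (0%) passed an adjusted p of 0.05, and 4196 had an unadjusted p under 0.05, of which 1585 were higher and 2611 lower after 30 days. The adjusted p was 0.493 for each of the 11 higher probes and 0.493 to 0.497 for the 167 lower ones. Calls numbered 0 also after quantile normalization (4570 probes with an unadjusted p under 0.05, 2228 higher and 2342 lower) and after normexp background correction (5199, 3050 higher and 2149 lower), so the excess of lower probes at this level is not shared by all scalings. With slide as a fixed term limma called 5068 of 42405 probes (2549 higher and 2519 lower). In that fit 1 pre-culture array and the 2 arrays of the 30-day bFGF culture share the only slide that holds both groups. Its differences for the named genes are those of the bFGF culture from this 1 array, without the FGFC culture or the other pre-cultures. The calls include 19 of the 23 named genes that meet the 2-fold rule, which is no check, since these genes were chosen on the same arrays. With scan day as a fixed term, chosen after seeing the data, limma called 31 (7 and 24).

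The counts turned on the pre-culture of experiment 3. Without it, 122 of 28287 probes were higher (0.431%) and 1213 were lower (4.29%), which is 85 of 14929 genes higher (0.569%) and 385 lower (2.58%). Of the 11 higher probes 10 remained, and of the 167 lower probes 165, against 1 and 57 without experiment 1 and 3 and 108 without experiment 2. The pre-culture of experiment 1 carries the experiment number of both 30-day cultures and lies 10 passages before them, though no label names it as their parent, and against it alone 232 probes were higher and 1881 lower. The study describes its cultures as series, each with cells taken before the start, which would make this pre-culture the one of their series. Against the pre-culture of experiment 3 alone, a reference chosen after seeing the data, 1 probe was higher and 85 were lower, and 1 of the 11 and 11 of the 167 were among them. The pre-culture of experiment 3 was the nearest of the pre-cultures to the mean of the 30-day cultures at 10 of the 11 higher and 161 of the 167 lower probes. The gap between the 30-day cultures and the nearest pre-culture had a median of 0.27 at the higher and 0.30 at the lower probes, and reached 1 or more at 0 and 8 of them. At 119 of the 122 higher and 1065 of the 1213 lower probes found without experiment 3, that pre-culture lay nearer to the 30-day mean than to the other pre-cultures.

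**Figure D2:**
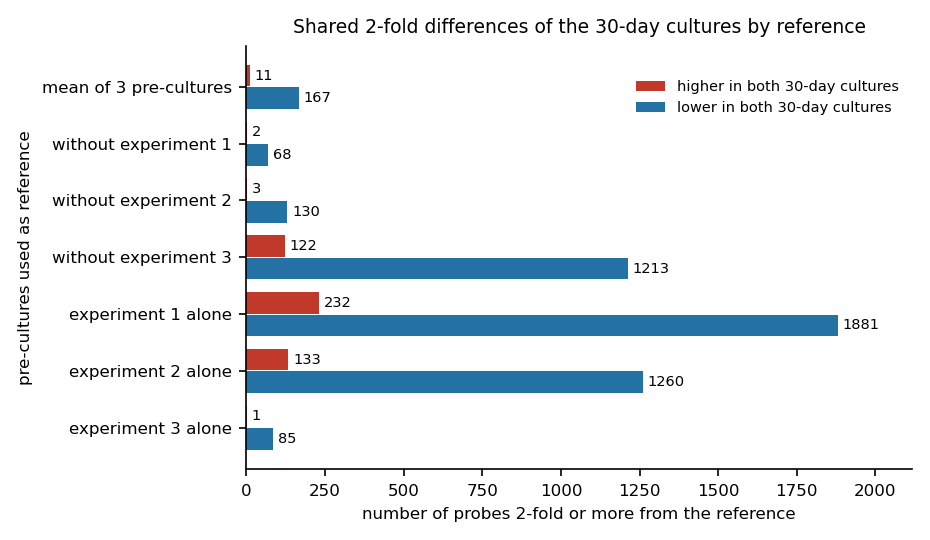
Number of probes at which both 30-day cultures lay 2-fold or more above (red) or below (blue) the reference and outside its range, for each choice of pre-cultures as the reference. The count of lower probes was 167 with all 3 pre-cultures, 1213 without that of experiment 3 and 85 against it alone.

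SPINK5, which encodes the serine protease inhibitor LEKTI, had a normalised signal of 0.44, -0.09 and -1.30 in the pre-cultures of experiments 1, 2 and 3 and of -1.60 and -4.04 in the 30-day bFGF and FGFC cultures. The groups did not overlap, yet experiment 3 lay close to the bFGF culture. The difference was -2.51 with an SE of 0.67 (limma, adjusted p = 0.493, lower in 2 of 2 cultures), a 5.69-fold lower signal, and 2 of its 3 probes met the 2-fold rule. COL4A4, a chain of the basement membrane collagen IV, had signals of -1.17, -1.58 and -3.04 against -3.20 and -4.71, and OVGP1, an oviduct glycoprotein, of -0.25, -0.84 and -2.19 against -2.53 and -3.53. Both were lower in each 30-day culture than in each pre-culture, by 0.17 and 0.34 at the nearest pair of cultures. Their differences were -2.03 (SE 0.56) and -1.94 (SE 0.57).

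LEFTY2, a target of Nodal signalling that in turn blocks it, had signals of -0.48, -0.88 and -1.46 in the pre-cultures and of -1.99 and -3.88 after 30 days with bFGF and FGFC. Here experiment 3 was 0.53 above the nearer 30-day culture, and the 4-day cultures, at -2.10 to -0.07, reached below the 30-day bFGF culture. Against the mean of the pre-cultures it differed by -1.05 with bFGF and by -2.94 with FGFC (SE of the mean difference 0.62, adjusted p = 0.493 by limma). WNT3, a ligand of canonical WNT signalling and of early mesoderm, had signals of -1.35, -1.36 and -2.97 against -3.25 and -4.22, a difference of -1.84 (SE 0.49). IGF2, an imprinted growth factor, had signals of -1.17, -1.20 and -2.21 against -2.60 and -2.82, a difference of -1.19 (SE 0.29), while the difference at its other probe was 0.37. RGS9, which speeds the turn-off of G protein signals, had -1.13, -1.53 and -2.72 against -2.96 and -4.59, a difference of -1.98 (SE 0.53). For WNT3, IGF2 and RGS9 the pre-culture of experiment 3 was the lowest of the pre-cultures and lay within 0.40 of the nearer 30-day culture.

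OOEP, a component of the maternal complex of oocytes and early embryos, had signals of -3.39, -3.10 and -4.25 in the pre-cultures and of -5.35 and -6.35 after 30 days, where 0 of 4 arrays were well above background. The mean of both 30-day cultures was at least 3.68-fold below the pre-culture mean, taken against the lowest signal well above background. The bFGF culture alone differed from the pre-culture mean by -1.77, so the bound does not hold for each culture. The 30-day signals lie near background, so that no exact gap to the pre-cultures is given. SYCP2L, a relative of a synaptonemal complex protein, had signals of -1.96, -2.42 and -3.44 against -3.89 and -5.69, again with 0 of 4 arrays well above background. Its bound for the mean of both 30-day cultures was 4.16-fold, while the bFGF culture alone differed by only -1.29. The other 7 probes with a measured gap of 1 or more, singled out after their values were seen, include those for FAM24B and CCBE1, and the remaining 5 have no symbol. None of the 8 was well above background on all 4 arrays after 30 days, so these gaps are imprecise. FAM24B had -4.15 and -4.60 after 30 days, inside the range of the 4-day cultures, which reached -4.71.

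MVP, which encodes the main protein of vault particles, had signals of 1.56, 1.09 and -0.61 in the pre-cultures and of -0.78 and -1.58 after 30 days, a difference of -1.86 (SE 0.56). VLDLR, a lipoprotein receptor, had signals of -2.12, -2.18 and -3.76 against -4.01 and -5.10 on the probe that met the rule, with 1 of 4 arrays well above background after 30 days, and TMC8 had -2.06, -1.70 and -3.73 against -3.80 and -4.96. In all 3 genes experiment 3 lay less than 0.25 above the 30-day bFGF culture. The difference was -1.88 (SE 0.56) for TMC8, whose other probe differed by -0.35. For VLDLR the measured -1.87 (SE 0.52) is imprecise, since most of its 30-day arrays were not well above background, and it was -0.82 after normexp and -1.51 at its brighter probe. LINC00112, a non-coding RNA, had signals of -0.71, -0.56 and -2.35 against -2.57 and -4.57, a difference of -2.36 (SE 0.62).

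RNA5-8SN5, a probe for 5.8S ribosomal RNA, had signals of 6.80, 6.73 and 3.61 in the pre-cultures and of 3.52 and 3.03 after 30 days. Here the pre-culture of experiment 3 lay 3.15 below the other pre-cultures and 0.09 above the nearest 30-day culture. The 6 cultures after 4 days ran from 2.87 to 7.43, so that the 30-day values lay inside their range. The duplicate arrays of 1 culture differed by 2.14 at this probe. The difference was -2.44 (SE 1.34, adjusted p = 0.497 by limma), and what this RNA says of RNA preparation or labelling was not tested.

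The higher set was small. TM4SF1, a membrane protein of the tetraspanin-like L6 family, had signals of -5.02, -4.90 and -3.38 in the pre-cultures of experiments 1, 2 and 3 and of -3.27 and -1.92 after 30 days with bFGF and FGFC. CHRDL2, which encodes a secreted BMP antagonist, had -5.41, -4.02 and -3.08 against -0.98 and -2.81. Each was well above background on 5 of the 6 pre-culture arrays. In both genes the pre-culture of experiment 3 was the highest of the pre-cultures, and it lay 0.11 and 0.27 below the nearer 30-day culture. The differences were 1.84 (SE 0.53), which is 3.58-fold, and 2.28 (SE 0.64), which is 4.85-fold (limma, adjusted p = 0.493 for both). For CHRDL2 the duplicate arrays of the pre-culture of experiment 1 gave -6.16 and -4.66, and its other probe differed by 0.63.

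RRM2, a subunit of the reductase that makes deoxynucleotides for DNA synthesis, had signals of -0.18, -0.14 and 1.06 in the pre-cultures and of 1.27 and 1.29 after 30 days. PPP1R17, an inhibitor of protein phosphatases, had -1.58, -1.11 and 0.03 against 0.18 and 0.50, and MSI2, an RNA-binding protein of stem and progenitor cells, had -2.66, -2.40 and -1.37 against -1.05 and -0.59. All 3 showed the same order, with experiments 1 and 2 low, experiment 3 just under the 30-day cultures, and no overlap of the groups. The differences were 1.04 (SE 0.39), 1.23 (SE 0.53) and 1.32 (SE 0.34), while the other probe of MSI2 differed by 0.39. The other higher genes were OAZ3, an antizyme of polyamine metabolism (1.31), the nuclear receptor coactivator NCOA5 (1.11), the zinc transporter SLC30A2 (1.10) and GSG1 (1.13), whose 4 probes ran from -0.65 to 1.13.

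**Figure D3:**
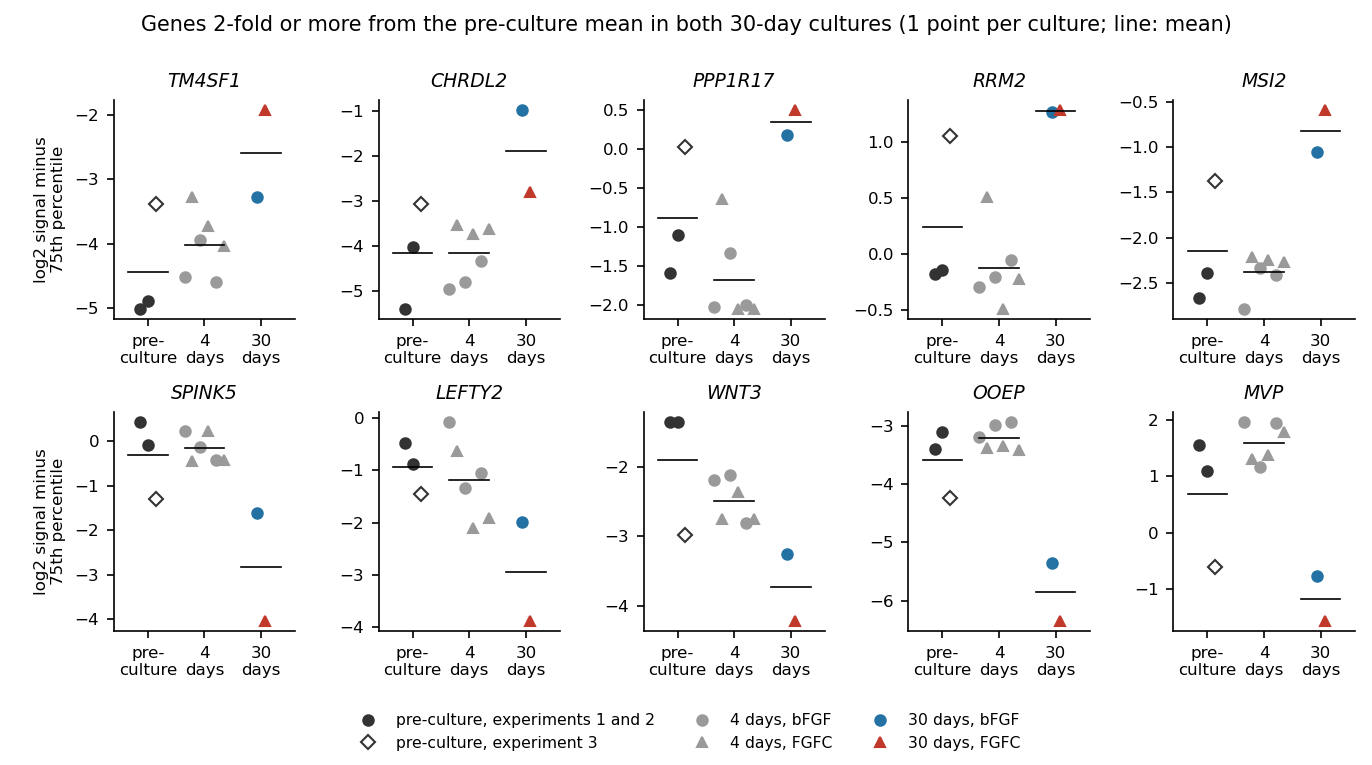
Normalised signal (log2 signal minus the 75th percentile of the array) of 10 genes in the 3 pre-cultures, the 6 cultures after 4 days and the 2 cultures after 30 days, 1 point for each culture, with a line at the group mean; the axes differ between genes. The open diamond, the pre-culture of experiment 3, is the pre-culture nearest to the 30-day cultures in all 10 panels, for example at 1.06 for RRM2 against 1.27 and 1.29.

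Without the pre-culture of experiment 3 each of these 23 differences was larger in size. Against experiments 1 and 2 alone the 9 higher genes differed by 1.42 (SLC30A2) to 2.82 (CHRDL2), with 2.37 for TM4SF1 and 1.44 for RRM2. The 14 lower genes differed by -1.53 (IGF2) to -3.49 (RNA5-8SN5), with -2.26 for LEFTY2, -2.38 for WNT3 and -2.59 for COL4A4. Scaling bore on the size as well, most at dim probes. After normexp the higher genes ran from 0.55 to 1.06 and the lower ones from -0.47 (OOEP) to -2.44 (RNA5-8SN5), with -0.77 for SYCP2L. The bounds on the folds of OOEP and SYCP2L were taken by the main scaling and were not reached after normexp. After quantile normalization the lower genes ran from -1.06 to -2.61, with -2.08 for OOEP and -2.035 for SYCP2L, and no bound was taken there.

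Probes for lincRNAs made up a larger share of the lower probes than of all probes. They were 61 of the 167 lower probes (36.5%) and 0 of the 11 higher ones, against 3782 of the 25863 probes (14.6%). Of the lower probes 100 have no gene symbol (59.9%, against 29.5% of all), and of the other 67, which stand for 63 genes, 53 probes are for protein-coding genes and 7 for genes annotated as lncRNA. The median of all 3782 lincRNA probes, minus the median of all 25863 probes, was -1.23, -1.33 and -1.56 in the pre-cultures and -1.59 and -1.73 in the 30-day bFGF and FGFC cultures. The median of the class was lowest in the 30-day cultures, with experiment 3 and the 30-day bFGF culture nearly level, and whether RNA quality or labelling had a part in it was not tested.

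The 61 lincRNA probes fall into 48 regions of the array's build, hg19, and 5 regions hold several of them. On chromosome 7, 7 probes for 5 overlapping annotations, 1 of them on the opposite strand, reach from 19951575 to 20164785, and their median signal was 0.96, 0.38 and -1.54 in the pre-cultures and -1.78 and -4.86 after 30 days with bFGF and FGFC. The region's probes were lower in both 30-day cultures than in each pre-culture, and lower with FGFC than with bFGF. Most of them were not well above background on all 4 arrays after 30 days, and the probe on the opposite strand was on 0 of 4. The low FGFC median is therefore imprecise. On chromosome 9, 4 probes from 132251336 to 132267691 had medians of -2.45, -3.02 and -3.83 against -4.31 and -4.22, and 3 probes from 2452800 to 2552025 had 0.96, 0.48 and -1.22 against -1.42 and -2.34. Smaller clusters of 2 probes each lay on chromosome 2 from 217380530 to 217421230 (-1.97) and on chromosome 11 from 86619702 to 86639077 (-1.31), with the median difference in brackets. Probes of 1 region share their source and are not replicates of each other.

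Both 30-day cultures met the rule by construction, but they did not lie equally far from the pre-cultures. The FGFC culture was the further one at 149 of the 167 lower and 7 of the 11 higher probes. Over the lower probes the median signal was -1.33, -1.58 and -2.82 in the pre-cultures of experiments 1, 2 and 3, -3.29 in the 30-day bFGF culture and -3.96 in the 30-day FGFC culture. Over the higher probes it was -3.21, -3.34 and -3.08 against -1.22 and -1.92. That median mixes probes of unlike level, and at 10 of the 11 the pre-culture of experiment 3 was the nearest to the 30-day cultures. With the bFGF culture alone 117 probes were higher and 248 lower, and with the FGFC culture alone 422 and 1452. Each FGF is represented by 1 culture after 30 days, so this difference has no replicate check.

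The 4-day cultures were not used by the 2-fold rule. At the lower probes their 6 medians ran from -2.33 to -1.59, between those of the pre-cultures of experiments 2 (-1.58) and 3 (-2.82), and were -1.64 with bFGF and -1.72 with FGFC in experiment 3. At the higher probes they ran from -3.34 to -2.68, against -3.08 in the pre-culture of experiment 3 and -1.22 and -1.92 after 30 days. These medians mix probes of unlike level and do not order the cultures at single probes. At most of the 11 higher probes the pre-culture of experiment 3 lay above all 6 cultures, as for RRM2 (1.06 against 0.51 or less). For TM4SF1 and NCOA5 it did not. Both 30-day cultures lay beyond the whole range of the 6 cultures after 4 days at 11 of 11 higher and 155 of 167 lower probes. These probes were chosen for extreme 30-day values and the share over all probes is not given, so no conclusion is drawn from these counts. The 30-day cultures are shared with the comparison above, so these values are set side by side and lend each other no weight. By limma 0 of 42405 probes (0%) passed between 30 days and 4 days, with 9371 at an unadjusted p under 0.05 and a smallest adjusted p of 0.146, and the count was 0 also after quantile normalization (8819) and normexp (9437). The 4-day cultures of experiment 2 carry passage 59 in their labels, and without them the count was 0 (7234).

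In the 4 other systems, none of whose cultures the rule used, the same direction was seen at fewer than 1 in 2 of the probes. Their mean late-minus-pre difference was lower at 73 of the 167 lower probes, with a median of 0.08, and higher at 2 of the 11 higher probes, with a median of -0.25. Over all 25863 probes it was lower at 52.7%, with a median of -0.01. By limma with the system as a block 0 of 42405 probes (0%) passed, with 5106 at an unadjusted p under 0.05, and after quantile normalization and normexp the counts were 0 (4764) and 0 (15570). After normexp 1013 of the 15570 were higher and 14557 lower, and the median difference over all 42405 probes was -0.24, against -0.07 by the main scaling. The directions in these systems are given by the main scaling only. TM4SF1 differed there by -0.05, RRM2 by 0.12, LEFTY2 by -0.28 and WNT3 by -0.17. The systems differ from H1 in E8 Medium in line, medium or days, and the difference from them was not tested. For 201B7 the pre-culture was on another slide and scan day than the late cultures. Its arrays had a 75th percentile signal of 182 and 234, against 504 to 632 in the late cultures.

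The promoters of the genes that met the 2-fold rule are described next. These genes share a direction because the rule chose them for it, and whether they share regulation was not tested. The 300 bases from 250 before to 50 after each start, from RefSeq (GRCh38.p14), were at hand for 7 of the 9 higher and 43 of the 63 lower genes, and for 11260 of the 14217 genes. The letters TATAAA, searched on both strands, were in 7 of the 43 lower (16.3%) and 0 of the 7 higher promoters, against 711 of 11260 (6.31%). The ratio of observed to expected CpG, which is low outside CpG islands, had a median of 0.60 for the lower, 0.81 for the higher and 0.82 for all genes. Below are the promoter of SPINK5, the only named gene with TATAAA among those with a promoter at hand, in which capitals mark the match on the printed strand that overlaps another on the opposite strand, and for contrast in base composition those of MVP (CpG ratio 0.155) and VLDLR (1.07), the lowest and highest ratios among the same genes. A match is a description of letters and not of a bound site.
SPINK5 (chr5:148063730-148064029, forward strand): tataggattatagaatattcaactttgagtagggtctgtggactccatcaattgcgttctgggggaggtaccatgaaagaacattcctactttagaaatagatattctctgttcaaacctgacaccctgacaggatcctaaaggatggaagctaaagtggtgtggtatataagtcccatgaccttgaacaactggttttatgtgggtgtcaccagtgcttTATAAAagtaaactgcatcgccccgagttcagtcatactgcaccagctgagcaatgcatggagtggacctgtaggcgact
MVP (chr16:29820144-29820443, forward strand): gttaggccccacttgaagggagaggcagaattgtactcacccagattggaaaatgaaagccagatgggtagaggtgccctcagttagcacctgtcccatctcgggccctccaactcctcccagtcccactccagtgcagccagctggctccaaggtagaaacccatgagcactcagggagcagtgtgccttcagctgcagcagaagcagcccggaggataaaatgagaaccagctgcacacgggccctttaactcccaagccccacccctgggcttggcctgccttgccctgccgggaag
VLDLR (chr9:2621537-2621836, forward strand): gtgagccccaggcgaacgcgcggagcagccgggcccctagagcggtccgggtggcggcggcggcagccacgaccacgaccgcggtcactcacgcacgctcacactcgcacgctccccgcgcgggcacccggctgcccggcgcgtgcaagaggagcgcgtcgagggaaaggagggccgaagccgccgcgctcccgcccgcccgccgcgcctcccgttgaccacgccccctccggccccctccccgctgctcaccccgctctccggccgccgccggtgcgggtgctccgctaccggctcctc

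The core pluripotency factors were expressed at high levels in all 5 cultures. POU5F1 had signals of 8.01, 8.00 and 8.11 in the pre-cultures and of 8.29 and 8.53 after 30 days with bFGF and FGFC, and SOX2 had 4.32, 4.35 and 4.64 against 4.74 and 4.86. NANOG had 4.04, 4.02 and 4.39 against 4.53 and 4.39. The groups did not overlap for POU5F1 and SOX2, and for NANOG the 30-day FGFC culture and the pre-culture of experiment 3 were level. The differences were 0.37 (SE 0.21), 0.37 (SE 0.18) and 0.31 (SE 0.25), with adjusted p from 0.493 to 0.597 by limma, and after quantile normalization 0.32 for POU5F1, 0.17 for SOX2 and 0.11 for NANOG.

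Other genes of the undifferentiated state lay in the same order. ZFP42 (REX1) had signals of 4.02, 4.28 and 4.90 in the pre-cultures and of 5.08 and 5.35 after 30 days, a difference with an SE of 0.30 and an adjusted p of 0.493 by limma. DNMT3B, a de novo DNA methyltransferase, had 5.93, 6.25 and 6.57 against 6.67 and 6.70, and LIN28A, which blocks maturation of let-7 microRNAs, had 3.47, 3.68 and 3.90 against 3.98 and 4.24. TDGF1 (CRIPTO), the Nodal co-receptor, had 5.43, 5.21 and 5.68 against 5.84 and 5.86. In these 4 genes both 30-day cultures were above all pre-cultures, of which experiment 3 was the highest. After quantile normalization their differences were 0.58 for ZFP42, 0.23 for DNMT3B, 0.21 for LIN28A and 0.16 for TDGF1 (CRIPTO), against 0.82, 0.44, 0.43 and 0.41 by the main scaling. TERT, the telomerase subunit, had 2.39, 2.41 and 2.21 against 2.38 and 1.99, where the groups overlapped. Its difference was -0.16 (SE 0.19) and was 0.04 without the 30-day FGFC culture and 0.03 with slide as a fixed term.

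**Figure D4:**
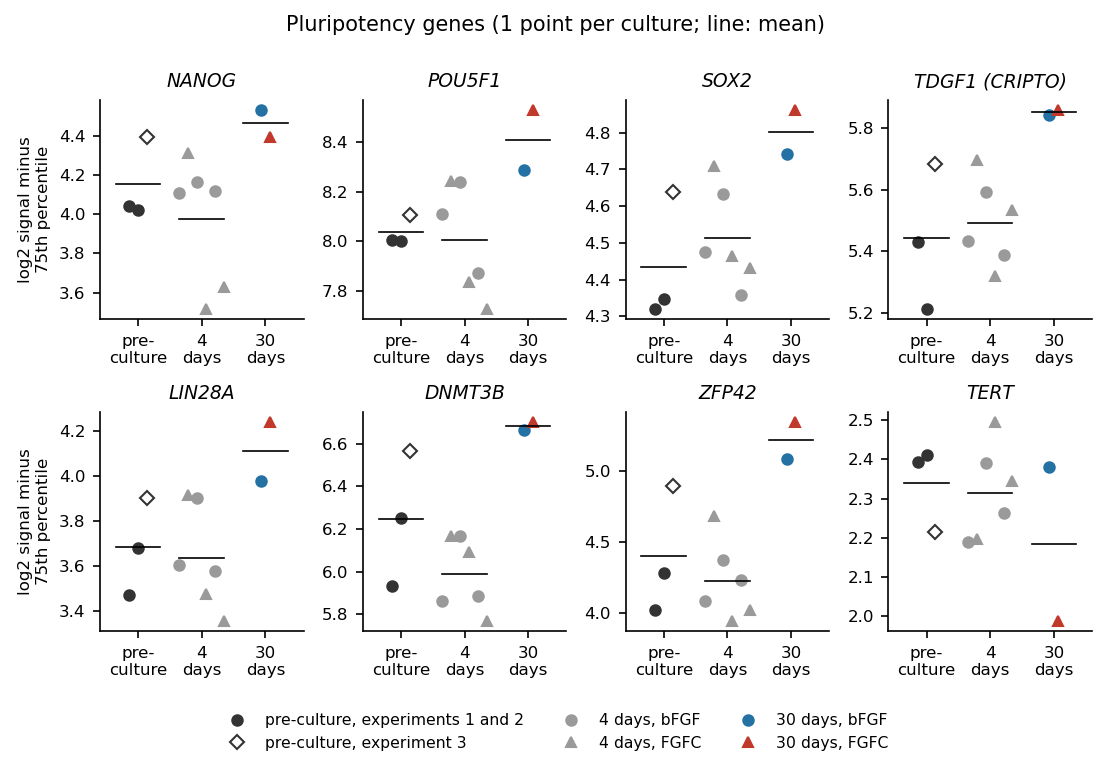
Normalised signal (log2 signal minus the 75th percentile of the array) of 8 pluripotency genes in the pre-cultures, the 4-day cultures and the 30-day cultures, 1 point for each culture, with a line at the group mean; the axes differ between genes. POU5F1 was 8.29 and 8.53 after 30 days against 8.00 to 8.11 in the pre-cultures.

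Defining markers of undifferentiated cells, the labelled type, were present in all 5 cultures, and few markers of other types were. All 10 markers of undifferentiated pluripotent cells were well above background on both arrays of each culture, with medians of 4.18, 4.32 and 4.77 in the pre-cultures and of 4.91 and 5.11 after 30 days. Of 5 markers of neuroectoderm 1 or 2 were well above background, of 6 of mesendoderm 0 to 2, of 5 of amnion or trophoblast 1, and of 6 of fibroblast or mesenchyme 2. SOX1 and ZIC1, TBXT, MIXL1, EOMES and SOX17, CDX2, and COL3A1 and LUM were well above background on no array of these 5 cultures.

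The gene lists below are described by the number of measured members well above background that lay in both 30-day cultures above, or below, all 3 pre-cultures, and by the median difference. Over all 14217 genes this holds for 4209 above (29.6%) and 2024 below (14.2%), and the median difference was 0.11. For 15 housekeeping controls it was 0.22, with 9 above and 0 below, so that medians of this size are found also for genes of general upkeep. None of the members passed limma's main fit, and 5 members of all lists met the 2-fold rule: RRM2, IGF2, LEFTY2, WNT3 and VLDLR, the last on a probe other than the one used for its list. In the fit with slide as a fixed term, which called 5068 of 42405 probes, these 5 passed, as did ZFP42, DNMT3B and TDGF1 (CRIPTO). For these genes that fit sets the bFGF culture against 1 pre-culture array, and the 5 were chosen on the same arrays, so it is no check. Without the 30-day FGFC culture HSPB1 differed by -2.95. Other members are named as examples, chosen after their values were seen. Against experiments 1 and 2 alone the median was 0.14 over all genes, 0.57 for cholesterol and fatty acid synthesis, 0.56 for heat shock and chaperones, 0.51 for neuroectoderm and -0.73 for mesendoderm, and the other lists ran from -0.51 to 0.41.

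Pluripotency as a list of 28 genes had a median of 0.34, with 14 above and 5 below. The median was 0.29 in the bFGF and 0.28 in the FGFC culture, 0.24 between the pre-culture of experiment 3 and the other pre-cultures, and 0.12 after quantile normalization. At the lower end DPPA2 had signals of 0.87, 0.80 and 0.49 in the pre-cultures and of 0.41 and -0.81 after 30 days. Of 18 naive state genes 9 were well above background, with a median of -0.41, 1 above and 3 below. It was -0.25 in the bFGF and -0.68 in the FGFC culture, and -0.25 after quantile normalization. KLF17, a factor of the naive state, had 6.55, 6.44 and 6.02 against 5.79 and 5.41, with no overlap of the groups.

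Genes of cholesterol and fatty acid synthesis had a median of 0.44, and 24 of 34 lay above and 0 below. It was the highest of the lists by the main scaling only, at 0.25 against 0.28 for neuroectoderm after quantile normalization and at 0.41 against 0.43 for heat shock and chaperones after normexp. STARD4, a cholesterol carrier, had signals of -1.18, -1.26 and -0.36 in the pre-cultures and of -0.28 and 0.35 after 30 days. NSDHL had 2.38, 2.61 and 3.35 against 3.48 and 3.92, and HMGCS1, which makes HMG-CoA for the pathway, had 1.91, 2.00 and 2.62 against 2.89 and 3.08. In each of the 3 the groups did not overlap and experiment 3 was the highest pre-culture. The median was 0.39 for the pre-culture of experiment 3 against the other pre-cultures and 0.18 for the 30-day cultures against experiment 3 alone, and 0.17 in the 4 other systems. Mitochondrial and oxidative genes had a median of 0.24 (9 of 21 above, 0 below), and genes of glycolysis and hypoxia of 0.06 (9 of 31 above, 1 below), which were 0.02 and -0.01 after quantile normalization, against 0.08 over all genes.

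Heat shock and endoplasmic reticulum chaperones had a median of 0.43, with 13 of 20 above and 0 below. HSPA8, a constitutive chaperone, had signals of 4.20, 4.61 and 5.55 in the pre-cultures and of 5.50 and 5.70 after 30 days. DNAJA1, its co-chaperone, had 2.71, 2.84 and 3.80 against 3.83 and 4.03. For HSPA8 experiment 3 lay between the 30-day cultures, so that the groups overlapped, and for DNAJA1 it lay less than 0.1 below them. Against the pre-cultures of experiments 1 and 2, the median was 0.44 for experiment 3 and 0.56 for the 30-day cultures. HSPB1, at -1.22 the lowest member, rests on 1 array, since the arrays of the 30-day bFGF culture gave 4.40 and -1.90.

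Targets of p53 had a median of -0.22 (3 of 23 above, 6 below) and genes of the amino acid response of -0.14 (3 of 33 above, 5 below). A smaller share of both lists lay above than over all genes, and a larger share of the p53 list lay below, and after quantile normalization the medians were -0.22 and -0.32. Against experiment 3 alone both were above 0, so no direction is given for these lists. GDF15, a stress-induced secreted factor on both lists, had signals of 2.74, 2.05 and 0.57 in the pre-cultures and of 0.60 and 0.68 after 30 days, and DDIT4, an inhibitor of mTOR signalling, had 3.16, 3.31 and 1.03 against 1.26 and 1.30. In both genes the pre-culture of experiment 3 was the lowest of all 5 cultures and the 30-day cultures lay inside the range of the pre-cultures. For experiment 3 against the other pre-cultures the medians were -0.32 and -0.42, and for the 30-day cultures against experiment 3 they were 0.02 and 0.07. Antioxidant genes had a median of 0.29 (12 of 24 above, 2 below), with HMOX1, which breaks down heme, at 1.93, 2.23 and 3.14 against 3.26 and 4.33. Metallothioneins and zinc transporters had a median of -0.34 (1 of 11 above, 2 below), which was 0.12 in the bFGF and -0.53 in the FGFC culture.

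Nodal and TGF-beta genes held some of the lowest differences. LEFTY1, like LEFTY2 a target and inhibitor of Nodal, had signals of 3.21, 3.09 and 2.39 in the pre-cultures and of 1.94 and -0.78 after 30 days, and NODAL itself had -0.55, -0.61 and -1.28 against -1.46 and -3.27. Both were lower in each 30-day culture than in each pre-culture, and far lower with FGFC than with bFGF, so that the bFGF culture did not reach 2-fold. The list had a median of -0.18 (4 of 19 above, 6 below), which was -0.02 in the bFGF and 0.05 in the FGFC culture, so no direction is given for the list. Targets of FGF and ERK had a median of 0.18 (4 of 18 above, 3 below). DUSP6, a phosphatase that ERK induces, had 5.40, 5.18 and 5.42 against 5.57 and 5.74, above all pre-cultures. WNT genes had a median of 0.08 (3 of 20 above, 2 below).

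Adhesion and matrix genes had a median of -0.36, with 4 of 30 above and 9 below. FN1, which encodes fibronectin, had signals of -2.72, -2.76 and -3.81 in the pre-cultures and of -3.99 and -6.01 after 30 days, and ITGA5, its receptor subunit, had -0.28, -0.11 and -1.15 against -1.24 and -1.84. The groups did not overlap in either gene, and experiment 3 lay less than 0.2 above the nearer 30-day culture. The list's median was -0.18 in the bFGF and -0.55 in the FGFC culture. Clustered protocadherins had a median of -0.23 (1 of 16 above, 5 below).

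Among lineage genes, those of neuroectoderm had a median of 0.41 (7 of 16 above, 3 below) and those of mesendoderm of -0.52 (0 of 8 above, 3 below). For experiment 3 against the other pre-cultures the medians were 0.30 and -0.51, and for the 30-day cultures against experiment 3 alone 0.05 and -0.14. The mesendoderm median was -0.30 in the bFGF and -0.65 in the FGFC culture. OTX2, a factor of primed pluripotent cells and the anterior neural plate, had signals of -1.91, -2.05 and -1.05 in the pre-cultures and of -0.93 and 0.24 after 30 days. LHX2 had -4.08, -3.97 and -3.68 against -3.44 and -1.95, and CXCR4, a chemokine receptor of definitive endoderm, had -2.34, -2.62 and -2.78 against -2.84 and -4.02. For each of these the 30-day FGFC culture was the furthest out and the bFGF culture lay within 0.25 of experiment 3. Genes of amnion and trophoblast had a median of -0.03 (0 of 6 above, 1 below), those of fibroblasts and mesenchyme of -0.40 (1 of 7 above, 1 below), HOX genes of -0.38 (0 of 2 above, 2 below) and germline and cancer-testis genes of -0.40 (1 of 8 above, 3 below). Few members of these 4 lists were well above background, so their medians rest on 2 to 8 genes. For fibroblasts and mesenchyme the median was -0.18 in the bFGF and -0.64 in the FGFC culture. For germline and cancer-testis genes it was -0.125 and -0.58, and -0.125 after normexp.

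Imprinted genes had a median of 0.04 (7 of 33 above, 5 below), which was -0.01 after quantile normalization, so no direction is given for the list. MEST, expressed from the paternal allele, had signals of 2.81, 2.75 and 3.43 in the pre-cultures and of 3.43 and 3.68 after 30 days, and H19 had -3.95, -3.69 and -3.94 against -4.78 and -4.64. In MEST the pre-culture of experiment 3 and the 30-day bFGF culture were level, and in H19 the 30-day cultures lay below all pre-cultures.

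Genes of proliferation had a median of 0.30 (13 of 27 above, 2 below), which was 0.16 after quantile normalization. It was 0.34 for experiment 3 against the other pre-cultures and 0.10 for the 30-day cultures against experiment 3 alone. CCNA2, the S phase cyclin, had signals of 0.99, 1.10 and 1.79 in the pre-cultures and of 1.82 and 1.99 after 30 days. Apoptosis genes of the BCL2 family had a median of 0.17 (9 of 22 above, 3 below), with BCL2L1, which protects against cell death, at -1.56, -1.34 and -1.15 against -1.10 and -0.70. In both genes the 30-day cultures lay above all pre-cultures, by less than 0.1 at the nearest pair. The segment 20q11.21, in which BCL2L1 lies, had a median of 0.32 (10 of 19 above, 0 below), and experiment 3 against the other pre-cultures had 0.28. By chromosome the median difference ran from 0.03 on chromosome 21 to 0.15 on chromosome 20, against 0.11 over all genes. On chromosome 20 it was 0.12 in the bFGF and 0.17 in the FGFC culture. The pre-cultures themselves deviated from their mean by -0.09, -0.04 and 0.12, with experiment 3 nearly level with the 30-day bFGF culture and below the FGFC culture. Whether a gain of this chromosome had a part was not tested. Without the pre-culture of experiment 3 the median of chromosome 20 was 0.22, against 0.14 over all genes.

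**Figure D5:**
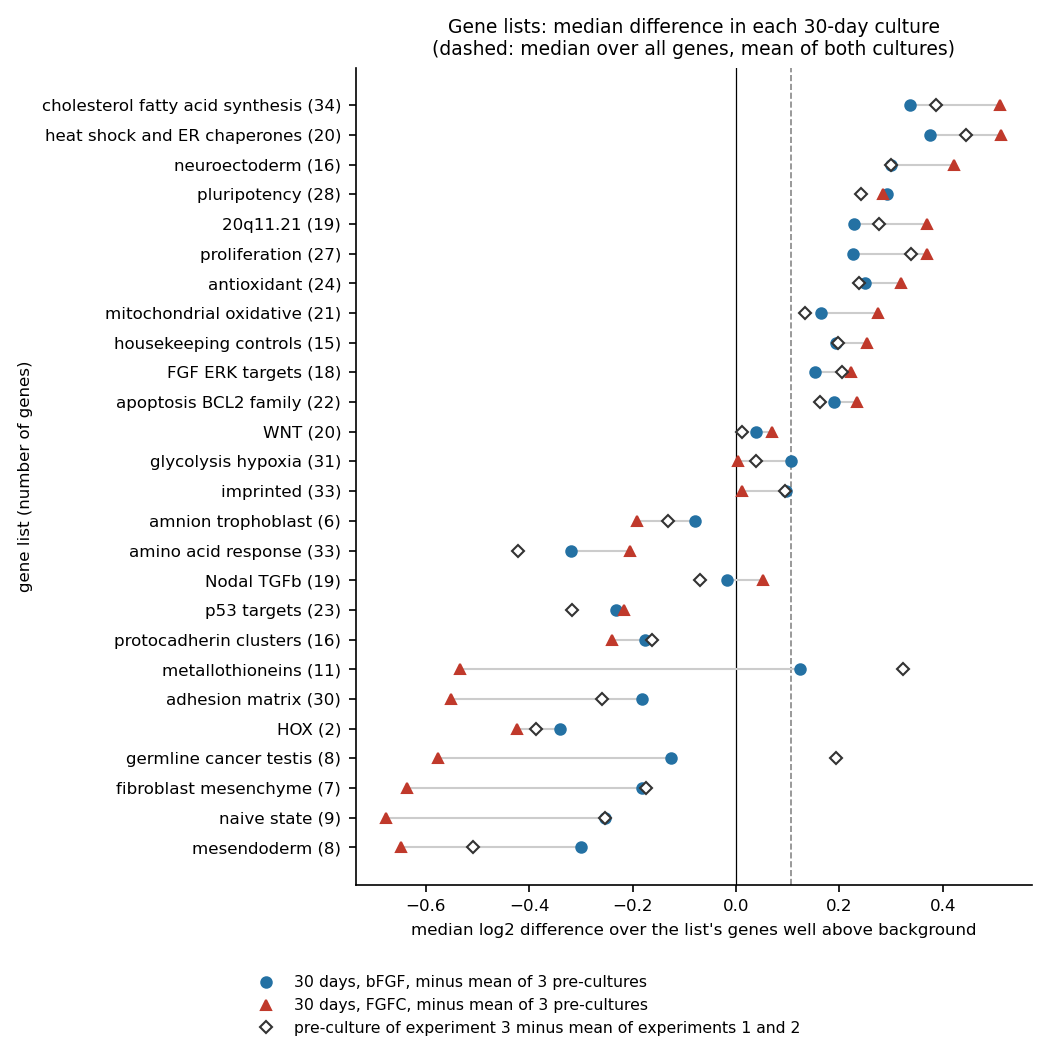
Median log2 difference over the members of each gene list that were well above background (number of genes in brackets), for the 30-day bFGF culture (circles) and the 30-day FGFC culture (triangles) against the mean of the pre-cultures, and for the pre-culture of experiment 3 against the other pre-cultures (diamonds). The diamonds follow the 30-day cultures in most lists, as in cholesterol and fatty acid synthesis at 0.39 against 0.34 and 0.51, and the dashed line is the median over all genes, 0.11.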

How the data were processed

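RNA of 54 samples was measured on 1-colour Agilent arrays. The authors deposited, for every spot, a processed signal intensity from Feature Extraction 10.7.3.1. It is linear, has the background subtracted and is not scaled between arrays. The deposited median intensities of spot and background are raw and linear. Marks for outlier, saturated and well-above-background spots, also deposited, are yes or no calls by the scanner software.

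An array holds 62976 spots, and without its 4259 controls 58717 remain, for 42405 probes. Outlier spots (312 to 528 on the 10 arrays) were dropped, and none was saturated. Signals had a floor of 1 (the lowest was 2.02 on the 10 arrays and 1.75 on all 54) and were put on the log2 scale. The mean over a probe's spots was taken and the 75th percentile over probes subtracted. A probe counts as well above background where 0.5 or more of its spots carry the mark. The number of arrays limits the precision, and probes near background are less precise. Symbols came from the probes' RefSeq accessions (25715 probes, 19720 genes), and 16690 probes have none. Duplicate arrays were averaged to 1 culture.

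Limma 3.58.1 in R 4.3.3 (lmFit, eBayes, two-sided, Benjamini-Hochberg over all probes, threshold 0.05) was fitted to 11 H1 cultures in E8 Medium (3 pre-cultures, 6 after 4 days, 2 after 30 days) and, with the system as a block, to 12 cultures of the 4 other systems. SE and adjusted p in the text are limma's. The differentiated culture and, outside 1 alternative, the cultures without FGF were not used here. Further tools were Python 3.11.15, numpy 2.4.6, pandas 2.3.3 and matplotlib 3.10.9. The main fits, those with experiment or scan day as a term, and the 2-fold rule were run on simulated data with large planted differences. The simulated fits held no pre-culture set apart from the others, and the fit with slide as a term was not simulated. These runs check the code and not the power in these data.

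Named genes are, among probes with a symbol that meet the 2-fold rule, the 12 with the largest difference in each direction (9 were higher), list members that meet it, and the 8 pluripotency genes given with all values. A list uses the probe of each gene with the highest mean signal. The members and lists were chosen with earlier results of these data known. Alternatives were quantile normalization, normexp (offset 50, on the deposited median intensities because the files hold no mean), filters, thresholds, other sets of cultures or arrays, and slide, scan day or experiment as terms.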

Additional observations from a re-analysis of the deposited data

Results flagged for a closer look

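For 3 named genes both 30-day H1 cultures in E8 Medium differed from their pre-cultures in 1 direction and all 8 late cultures of the 4 other systems in the opposite one, and the difference between H1 in E8 Medium and the other systems was not tested. Both late cultures of a system share 1 pre-culture, so the 8 values rest on 4 pre-cultures, and the genes were picked from the named ones for this pattern. OAZ3 differed by 1.31 in H1 and by -0.84 to -0.15 in the other systems. Its 30-day cultures lay 0.07 or more above the pre-culture of experiment 3, and duplicate arrays of 1 culture differed by 1.01. TMC8 differed by -1.88 against 0.05 to 1.17, on 1 of its 2 probes. IGF2 differed by -1.19 against 0.19 to 2.14, on 1 of its 2 probes.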

How the results depend on the processing

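The limma count of 0 between 30 days and pre-culture was also 0 with the experiment as a replicate block (3577 probes at an unadjusted p under 0.05), with only probes well above background (4541), 5 cultures (2842), 14 cultures (5131), or the first (5258) or second array (3422) of each culture. No label says that cultures with 1 experiment number stem from each other, although the study's text ties a series to its starting cells. The correlation of deviations ran from -0.16 to 0.52 over 9 pairs, and not every culture matched its own number best, so no pairing was assumed. Leaving out 1 culture gave 0 to 24 calls. The 24 (7 higher, 17 lower) came without the 30-day bFGF culture and 20 (11 higher, 9 lower) without the FGFC culture, of which 18 had duplicate arrays of the bFGF culture 2-fold or more apart. Without the pre-culture of experiment 3 there was 1, a lower probe without a symbol, noted after its values were seen. A lone 30-day culture is assumed to vary like the other groups. Slide as a fixed term gave 5068 calls and scan day 31, and both fits assume 1 correlation between duplicate arrays for all probes (0.25 and 0.62).

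Main counts of the 2-fold rule were 11 higher and 167 lower. Leaving out 1 culture moved them between 2 and 422 and between 68 and 1452, with 2 and 68 without the pre-culture of experiment 1, 3 and 130 without experiment 2, and 122 and 1213 without experiment 3. Quantile normalization gave 27 and 124 and normexp, which raises the level of dim probes by its offset, 0 and 26. Without a filter they were 71 and 447, with both groups well above background 6 and 106, on first arrays 22 and 313, on second arrays 32 and 324. Reference cultures alone gave 232 and 1881 (experiment 1), 133 and 1260 (experiment 2) and 1 and 85 (experiment 3). At 1.5-fold there were 372 and 1091, at 3-fold 0 and 14, without the range rule 13 and 202, and with the percentile over spots 6 and 247. Arrays of the shared scan day gave 299 and 2540 and of the shared slide 407 and 3076. The references of experiments 2 and 3, scan day and the slide count were chosen after seeing the data. The named genes' own differences on the shared slide and day reuse the arrays by which the genes were chosen and are no check. The cause of these differences was not tested.

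Of the values of single genes under other settings 431 kept their direction or, for the 8 pluripotency genes, moved from the main value by no more than 1 SD among the pre-cultures, 12 moved further, all for POU5F1, TERT, TDGF1 (CRIPTO), SOX2 or LIN28A, and 22 passed limma's threshold, all with slide as a fixed term. The medians of chromosomes 20 and 21 moved by less than the spread of the pre-cultures. Signal over background limits genes near it, such as OOEP, SYCP2L and VLDLR after 30 days.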

Other observations

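Without the pre-culture of experiment 3, genes beyond those described above were 2-fold or more from the other pre-cultures in both 30-day cultures. They were chosen after their values were seen, as some of the 10 largest in each direction. HESX1, a homeobox factor of the anterior embryo, had signals of -2.11, -1.81 and -0.70 in the pre-cultures of experiments 1, 2 and 3 and of -0.55 and 0.62 in the 30-day bFGF and FGFC cultures. PKDCC, a secreted kinase, had 1.10, 1.73 and 2.67 against 2.68 and 3.94. On the lower side HES4, a target of Notch, had 0.73, 0.86 and -1.03 against -1.02 and -2.89, and NPTX1, a neuronal pentraxin, had -0.22, 1.61 and -1.65 against -1.57 and -2.60. In all 4 genes the pre-culture of experiment 3 lay within 0.20 of the 30-day bFGF culture, and in the lower ones it was below that culture. After 4 days HES4 ran from -0.23 to 1.29 and NPTX1 from 0.17 to 3.89, above all values of experiment 3 and the 30-day cultures.

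With 1 of the 30-day cultures alone, some probes stood out that the other culture did not share. TTN, in the fit without the bFGF culture, had signals of 1.14, 0.75 and 0.31 in the pre-cultures, 0.27 with bFGF and -2.08 with FGFC. NR3C1, the glucocorticoid receptor, had -3.17, -3.29 and -3.30 against -2.85 and -1.25. In the fit without the FGFC culture ANKS6 was 3.27 on the first and -4.06 on the second array of the bFGF culture, against 3.43 in the FGFC culture.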
